A study of Rattus norvegicus with 20 samples.

Results

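Esr1 and Esr2 encode the oestrogen receptors alpha and beta. Both were followed probe by probe in whole ovaries of rats 46 days old whose mothers ate a mixture of brominated flame retardants. They were 2 of the 12452 genes tested, found through the transcript each probe is annotated to. Esr1 (gene ID 24890, transcript NM_012689) had 1 probe, A_44_P401615, printed as 10 spots on every array. Esr2 (gene ID 25149, transcript NM_012754) had 3 probes of 1 spot each, A_64_P055962, A_64_P049530 and A_64_P055960. All 4 probes entered the tests.

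Each oestrogen receptor is a transcription factor that binds oestradiol, is held by heat shock protein chaperones before it binds, and then pairs with a second receptor on oestrogen response elements in DNA. It activates or represses target genes with coactivators and corepressors. In the rodent ovary Esr2 is known as the receptor of granulosa cells, the follicle cells that make oestradiol, whereas Esr1 is found mainly in theca, interstitial and surface cells. Mice without Esr2 ovulate poorly, and mice without Esr1 do not ovulate and form blood-filled cysts.

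The dams were Sprague Dawley rats fed a diet with a mixture of polybrominated diphenyl ethers (DE-71, DE-79 and BDE-209) and hexabromocyclododecane, from before mating until weaning. The mixture was proportioned after house dust. There were 5 ovary samples from litters of dams whose diet held none of the mixture, called unexposed here, 4 from dams given a nominal 0.06 mg per kg body weight per day, 5 from the 20 mg dose and 6 from the 60 mg dose. Each sample was the ovarian RNA of a female offspring of a separate litter, taken at 46 days of age. Replicate 4 of the 0.06 mg dose, which the submitters dropped as aberrant, is not analysed here. The doses assume a set food intake of the dams, exposure ended at weaning, and the labels give no stage of the oestrous cycle.

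Total RNA of the entire ovary was labelled with Cy3 and hybridised to 1-colour Agilent arrays, 1 array per animal. Values are log2 of the processed spot signal minus log2 of the array's 75th percentile, so a value of -5 is a signal far below that percentile. The percentile ran from 1158 to 1737 intensity units over the arrays and 74.8% to 83.4% of spots were well above background. The arrays lay on 3 slides, each of which held all 4 doses, and 5053 of 23258 probes differed between slides. For the ovary label, 13 granulosa cell, 10 oocyte and 7 theca and interstitial cell genes of the marker lists were measurable. On 5 arrays oviduct epithelium markers stood apart, with a list score of 0.63 to 1.55 log2, against at most 0.04 on the others: unexposed replicates 2 and 4, 20 mg replicates 4 and 5 and 60 mg replicate 6. In whole ovaries, fewer cells of a type and less RNA per cell cannot be told apart.

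The promoters of the 2 receptor genes are shown as RefSeq gives them in build GRCr8, because the letters show which response elements lie next to the annotated start of each gene. Each run is the 250 bases before the start, 5′ to 3′ on the gene's strand, and capitals mark the motif matches. The Esr1 start is 1 of several inside the gene's span of chr1:43511685-43904454 and its run is chr1:43641845-43642094, plus strand. The Esr2 gene spans chr6:100589553-100645240 and its run is chr6:100644710-100644959, minus strand, so this run too lies inside the gene's span.
Esr1: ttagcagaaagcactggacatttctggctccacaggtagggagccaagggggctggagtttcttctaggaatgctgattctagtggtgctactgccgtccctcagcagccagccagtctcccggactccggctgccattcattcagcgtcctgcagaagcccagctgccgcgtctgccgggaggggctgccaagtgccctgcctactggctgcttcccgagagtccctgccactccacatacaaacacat
Esr2: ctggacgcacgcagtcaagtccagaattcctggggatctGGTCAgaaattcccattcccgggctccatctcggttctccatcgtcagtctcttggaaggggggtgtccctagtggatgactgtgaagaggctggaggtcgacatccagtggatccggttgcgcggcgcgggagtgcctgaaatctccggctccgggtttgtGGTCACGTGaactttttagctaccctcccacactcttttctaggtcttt
The motifs searched on both strands were GGTCA (a single arm of the oestrogen response element), GGTCANNNTGACC (the complete element), TGANTCA (AP-1, the Fos and Jun site), CACGTG (E-box), GGGCGG (GC box) and AAGGTCA (the site of the gonadal factor SF-1). The Esr1 run, with a GC content of 59.6%, held none of the 6. The Esr2 run, with a GC content of 56.4%, held GGTCA at 2 places, starting 211 and 49 bases before the start, and CACGTG starting 46 bases before it, where it overlaps the second GGTCA. Among 33469 RefSeq promoters of the same length, 35.4% held GGTCA and 5.59% held CACGTG. The complete element was in 0.0239%, AP-1 in 6.34%, the GC box in 30.5% and the SF-1 site in 3.99%.

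Esr1 values were lowest in unexposed ovaries on average. In unexposed ovaries the log2 values were -6.97, -6.07, -6.05, -6.06 and -5.32. At 0.06 mg they were -5.62, -5.43, -4.88 and -5.92, and at 20 mg they were -5.97, -5.48, -5.55, -5.64 and -5.21. At 60 mg the lowest, median and highest were -6.19, -5.74 and -5.64. The unexposed group held the lowest value of all, in replicate 1, and 1 of the higher ones, in replicate 5, so it overlapped every dosed group. Of the dosed ovaries, 4 of 4, 5 of 5 and 5 of 6 lay above the unexposed median, from low to high dose, but 1, 1 and 0 lay above the highest unexposed ovary.

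The Esr1 group means were -6.09 ± 0.59 in unexposed ovaries (SD, n = 5), -5.46 ± 0.44 at 0.06 mg (n = 4), -5.57 ± 0.27 at 20 mg (n = 5) and -5.84 ± 0.21 at 60 mg (n = 6). In order of level, 0.06 mg was highest, then 20 mg, 60 mg and unexposed. The steps between neighbours in that order were 0.11, 0.27 and 0.26 log2, each smaller than the SD within doses of 0.39 log2.

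The 10 Esr1 spots gave the spread within an array directly. The SD over the spots was 0.10 to 0.36 log2, with a median of 0.20, and the SE of an array's mean had a median of 0.064 log2. Squared spot errors averaged 2.72% of the variance between arrays, which also holds labelling, hybridisation and slide effects. The mean signal was at most 41.8 intensity units and lay 0.46 to 2.03 log2 above the lowest signal called well above background on the same array. All spots in use were well above background on 18 of 20 arrays. The exceptions were unexposed replicate 1, with 7 of 10 spots, and 60 mg replicate 5, with 9 of 10.

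The brightest Esr2 probe was lower in every dosed group's mean than in unexposed ovaries. Probe A_64_P055962 had log2 values of -4.02, -3.71, -3.02, -3.59 and -3.34 in unexposed ovaries. It had -4.34, -3.66, -4.27 and -3.81 at 0.06 mg, and -3.80, -4.07, -4.01, -3.90 and -4.05 at 20 mg. At 60 mg the lowest, median and highest were -4.34, -3.81 and -3.59. All 15 dosed ovaries lay below the unexposed median, but only 2 in each dosed group lay below the lowest unexposed ovary, so the groups overlapped. The closest, 60 mg replicate 1, was at -3.591 against that median of -3.587. In the authors' deposited log2 values 0.06 mg replicate 2, at 0.319, lay above the unexposed median of 0.255. The highest value of the series, -3.02, was that of unexposed replicate 3.

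The group means of this probe were -3.54 ± 0.38 in unexposed ovaries (SD, n = 5), -4.02 ± 0.34 at 0.06 mg (n = 4), -3.97 ± 0.11 at 20 mg (n = 5) and -3.93 ± 0.31 at 60 mg (n = 6). The 3 dosed means lay within 0.09 log2 of each other, and the step from 60 mg to unexposed ovaries, 0.40 log2, exceeded the SD within doses of 0.30 log2. All 3 Esr2 probes were well above background on all 20 arrays.

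The other Esr2 probes did not share this pattern in full. Probe A_64_P049530 averaged -5.08 ± 0.36, -4.64 ± 0.15 and -4.69 ± 0.35 at 0.06, 20 and 60 mg, against -4.67 ± 0.37 in unexposed ovaries. It was low in 0.06 mg ovaries, where 2 of 4 lay below every unexposed ovary, while 4 of 5 ovaries at 20 mg and 2 of 6 at 60 mg lay below the unexposed median. Probe A_64_P055960 averaged -5.12 ± 0.28, -5.17 ± 0.20 and -5.05 ± 0.24, against -4.86 ± 0.34. Here 3 of 4, 5 of 5 and 5 of 6 dosed ovaries lay below the unexposed median, and 1 of each group below the lowest unexposed ovary.

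**Figure D1:**
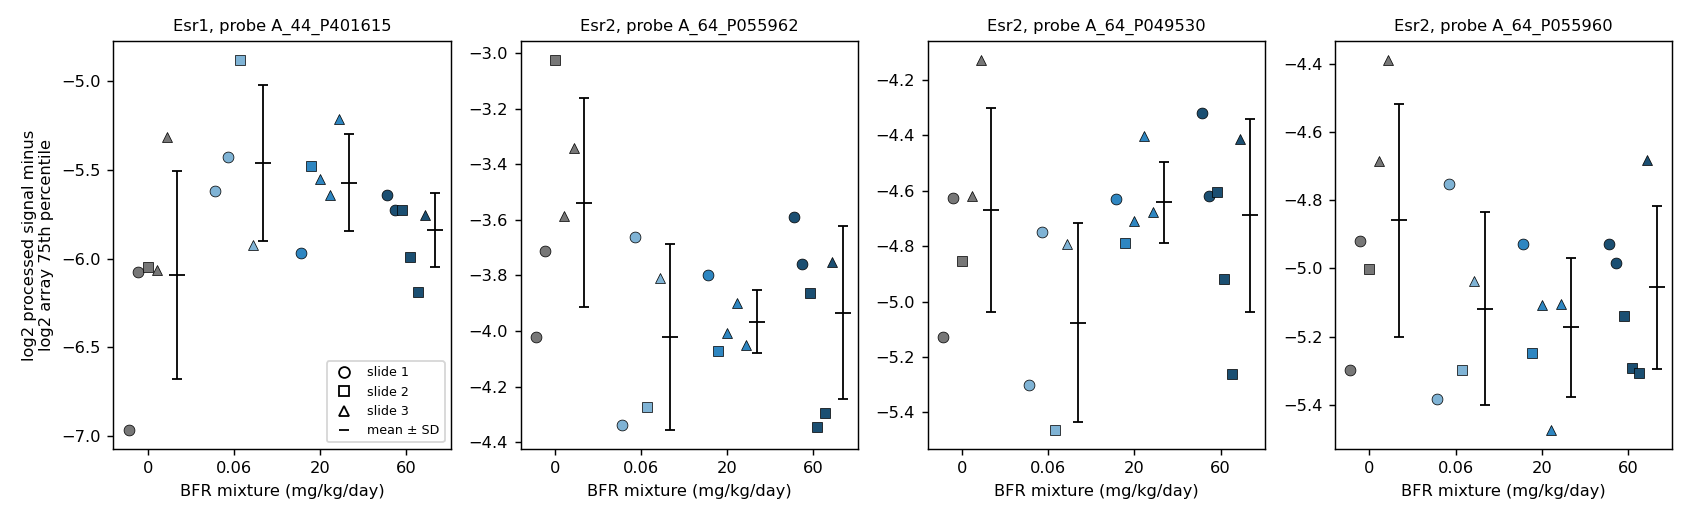
Log2 signal relative to the array's 75th percentile for each receptor probe (vertical axes, which differ between panels) by daily dose in mg per kg (horizontal axes). Each point is 1 ovary, its shape gives the slide, and bars are mean ± SD; the lowest Esr1 value, -6.97, and the highest Esr2 value, -3.02, are both unexposed ovaries.

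The test of the question the study poses, whether perinatal exposure changed ovarian transcripts, was a limma fit over all 23258 probes with all 4 groups, with p-values adjusted over all probes by the Benjamini-Hochberg method. No probe passed an adjusted p of 0.05 at any dose (0% called in each comparison), and neither receptor did. At an unadjusted p under 0.05, 3.05% of probes were called at 0.06 mg, 4.58% at 20 mg and 6.29% at 60 mg (710, 1066 and 1464 probes), so single unadjusted p-values of the receptors are to be read against those shares. The 3 comparisons share the same 5 unexposed arrays.

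Esr1 differed from unexposed ovaries by +0.63 ± 0.25 log2 (SE; 95% interval 0.10 to 1.16) at 0.06 mg, with an unadjusted limma p of 0.022 and an adjusted limma p of 1.00. At 20 mg the difference was +0.52 ± 0.24 log2 (0.02 to 1.02), with limma p-values of 0.042 unadjusted and 0.93 adjusted. At 60 mg it was +0.26 ± 0.23 log2 (-0.22 to 0.74), with limma p-values of 0.28 unadjusted and 0.85 adjusted. Leaving out unexposed replicate 1 lowered these differences to +0.41, +0.30 and +0.04 log2, and leaving out unexposed replicate 5 raised them to +0.83, +0.72 and +0.45. Within slide 1 the differences were +1.00, +0.55 and +0.84, within slide 2 +1.17, +0.57 and +0.08, and within slide 3 -0.23, +0.22 and -0.06 log2. The sign at 0.06 and 60 mg was thus not the same on slide 3 as on the other slides, each value resting on 1 to 3 arrays per group. With normexp background correction the pooled Esr1 differences were smaller, at +0.32 ± 0.11, +0.22 ± 0.10 and +0.17 ± 0.10 log2. This correction adds an offset of 50 to every signal, beside a highest Esr1 mean signal of 41.8. The offset shrinks log2 differences and their SE, most for dim probes, so smaller values alone do not show a weaker difference. The offset is also added before the array's 75th percentile is subtracted, so a dim probe's value rises where that percentile is low. The processed-signal percentile had medians of 1203, 1383 and 1298 at 0.06, 20 and 60 mg, against 1508 in unexposed ovaries. The part of this shift in the normexp differences was not tested.

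For the brightest Esr2 probe the differences were -0.48 ± 0.20 log2 (SE; 95% interval -0.90 to -0.07), -0.43 ± 0.19 (-0.82 to -0.04) and -0.40 ± 0.18 (-0.77 to -0.02), from low to high dose. The unadjusted limma p-values were 0.024, 0.033 and 0.038, and the adjusted ones 1.00, 0.93 and 0.78. Within slide 1 the differences were -0.13, +0.07 and +0.19 log2, within slide 2 -1.25, -1.05 and -1.14, and within slide 3 -0.34, -0.52 and -0.29. The slide 2 values share a single unexposed array, replicate 3, the one with the highest Esr2 value. Without it the pooled differences were -0.36, -0.30 and -0.27 log2. With normexp they were -0.26 ± 0.11, -0.24 ± 0.10 and -0.18 ± 0.10 log2.

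The remaining Esr2 probes gave smaller differences. A_64_P049530 differed from unexposed ovaries by -0.41 ± 0.21, +0.03 ± 0.20 and -0.02 ± 0.19 log2, and A_64_P055960 by -0.26 ± 0.18, -0.31 ± 0.17 and -0.20 ± 0.16 log2. The mean of the 3 probes differed by -0.38 ± 0.18, -0.24 ± 0.17 and -0.20 ± 0.16 log2. The adjusted limma p-values of the single probes and of the mean were 0.82 or more. For A_64_P049530 at 20 mg the interval, -0.38 to 0.44 log2, holds changes of either sign. Within slide 1 its differences were -0.15, +0.25 and +0.41 log2, within slide 2 -0.61, +0.06 and -0.08, and within slide 3 -0.42, -0.22 and -0.04. Those of A_64_P055960 were +0.04, +0.18 and +0.15 log2 on slide 1, -0.30, -0.25 and -0.25 on slide 2, and -0.50, -0.69 and -0.14 on slide 3. With normexp the differences were -0.04, +0.09 and +0.09 log2 for A_64_P049530. For A_64_P055960 they were +0.08, 0.00 and +0.09 log2, so none of the A_64_P055960 differences was then negative. These normexp values also hold the shift of dim probes with the array's percentile.

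**Figure D2:**
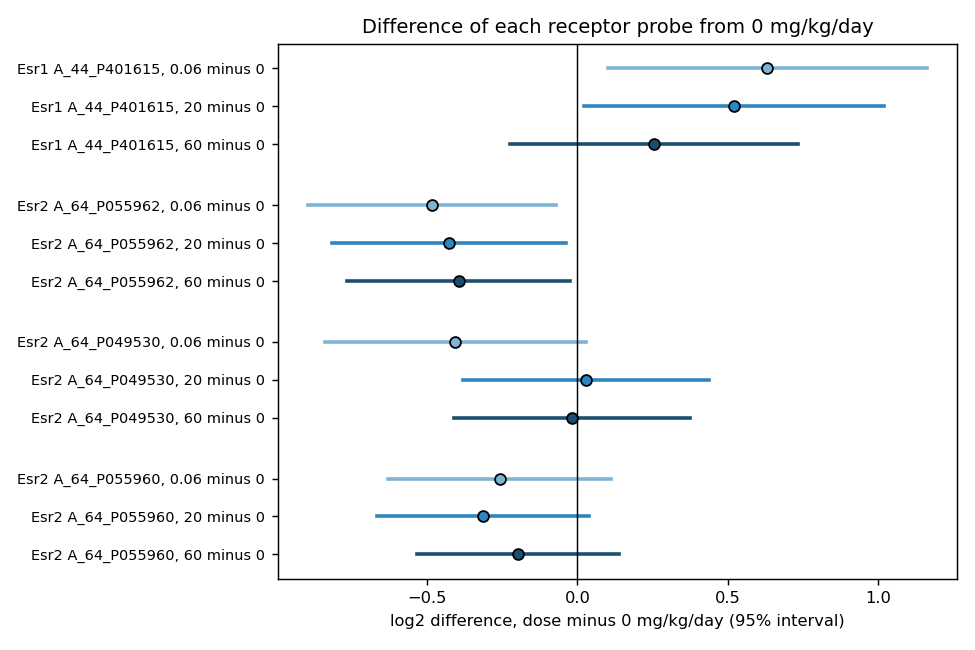
Log2 difference of each receptor probe (rows) at 0.06, 20 and 60 mg from unexposed ovaries, with the 95% interval of the limma fit (horizontal axis, log2). Esr1 points lie right of 0, at +0.26 to +0.63, and the brightest Esr2 probe left of 0, at -0.40 to -0.48, while the A_64_P049530 points at 20 and 60 mg sit near 0.

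Averaged over the 3 doses, Esr1 was +0.47 ± 0.20 log2 from unexposed ovaries and the brightest Esr2 probe -0.44 ± 0.15 log2. The unadjusted limma p-values were 0.027 and 0.010 and both adjusted ones 0.89. In that comparison 5.52% of all probes had an unadjusted p under 0.05 and 0% were called. The change per step of dose order was +0.07 ± 0.07 log2 for Esr1 and -0.11 ± 0.06 log2 for Esr2, with adjusted limma p-values of 0.95 and 0.88. No order with dose was therefore detected for either receptor, in a comparison where 5.75% of all probes had an unadjusted p under 0.05.

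The balance of the 2 receptors was followed as the log2 Esr1 value minus the log2 value of the brightest Esr2 probe on the same array. Levels of different probes cannot be set against each other, so only differences of this quantity between ovaries are given, relative to its mean in unexposed ovaries. In unexposed ovaries the values were -0.39, 0.20, -0.47, 0.08 and 0.58. At 0.06 mg they were 1.28, 0.79, 1.95 and 0.44, and at 20 mg 0.39, 1.15, 1.01, 0.81 and 1.39. At 60 mg the lowest, median and highest were 0.50, 0.63 and 0.91. All 15 dosed ovaries lay above the unexposed median, and 3 of 4, 4 of 5 and 4 of 6 lay above the highest unexposed ovary.

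The log ratio was higher by 1.11 ± 0.28, 0.95 ± 0.26 and 0.65 ± 0.25 log2 (SE from the SD within doses of 0.41 log2) at 0.06, 20 and 60 mg than in unexposed ovaries, or 2.17, 1.93 and 1.57 times. No p-value is given, because the direction of both receptors in these ovaries was known when the ratio was chosen, and the ratio adds up those 2 directions. Within slides the difference with the brightest Esr2 probe was positive in all 9 cases, from 0.11 to 2.42 log2, and largest on slide 2. The 9 cases are not independent, because the 3 differences of a slide share the same 1 or 2 unexposed arrays. Those on slide 2 share only unexposed replicate 3, whose value of -0.47 was the lowest of all. The values on slide 1 were 1.13, 0.48 and 0.64 log2, on slide 2 they were 2.42, 1.62 and 1.22, and on slide 3 they were 0.11, 0.74 and 0.22. At 60 mg on slide 3, Esr1 differed by -0.064 log2 and A_64_P049530 by -0.041, so with that probe the sign did not hold. With the Esr2 probe A_64_P049530 in place of the brightest one the differences were 1.04, 0.49 and 0.27 log2. With the background correction normexp in place of the scanner's own they were 0.58, 0.46 and 0.35 log2. Its offset of 50 shrinks log2 differences, most for dim probes.

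**Figure D3:**
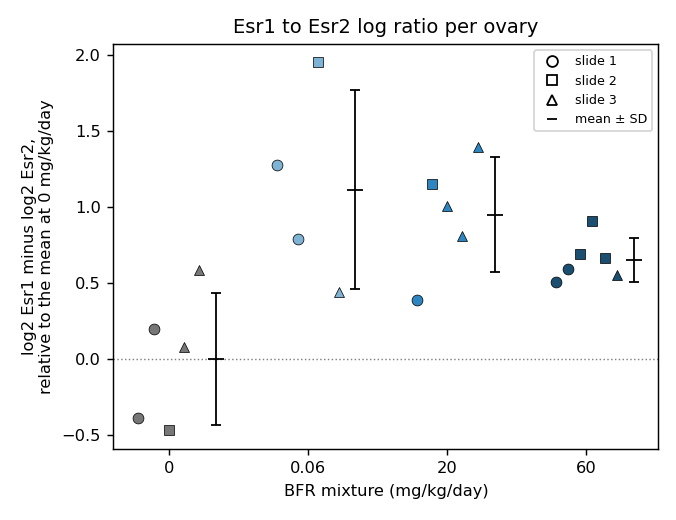
Log2 Esr1 minus log2 Esr2 (probe A_64_P055962) on each array, relative to its mean in unexposed ovaries (vertical axis, log2), by daily dose in mg per kg (horizontal axis). Points are ovaries, shapes are slides, bars are mean ± SD; the 6 ovaries at 60 mg sit between 0.50 and 0.91, the unexposed ones between -0.47 and 0.58.

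Whether the receptors vary together between ovaries was asked of 6 probe pairs over 20 arrays. The Esr2 probes tracked each other: Pearson's r was 0.71 for A_64_P055960 with A_64_P055962 (Spearman's rho 0.82, adjusted permutation p = 0.0028). It was 0.64 for A_64_P049530 with A_64_P055960 (rho 0.59) and 0.63 for A_64_P049530 with A_64_P055962 (rho 0.64), both with an adjusted permutation p of 0.0063. Within slides these r were 0.92, 0.98 and 0.83 for the first pair, 0.81, 0.56 and 0.48 for the second and 0.93, 0.44 and 0.68 for the third. Without the 2 arrays farthest from the median they were 0.85, 0.75 and 0.85. After normexp background correction the 3 r were 0.20, 0.60 and 0.44, so the first pair lost most of its relation. Esr1 was not shown to track any Esr2 probe, with r of 0.13, 0.12 and -0.07 (rho 0.12, 0.02 and -0.09) for A_64_P049530, A_64_P055960 and A_64_P055962, and adjusted permutation p-values of 0.74 to 0.76. With dose means removed these r were 0.40, 0.46 and 0.32, for which no p-value is given. For A_64_P049530 the r was 0.61 without the 2 farthest arrays, 0.06 mg replicates 3 and 1. After normexp the Esr1 r were 0.35, 0.60 and -0.28 in the same order. The shift of dim probes with the array's percentile under normexp enters these r and those of the Esr2 pairs. Within slides, the Esr1 r with A_64_P055962 was 0.24, -0.28 and -0.15.

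The Esr2 signal went with the overall brightness of the array, and no such relation passed the threshold for Esr1. Over the 20 arrays the brightest Esr2 probe had r = 0.61 with the percentage of spots well above background (rho 0.65, adjusted permutation p = 0.026 over 6 relations), and 0.70, 0.74 and 0.69 within slides 1 to 3. With the 75th percentile itself r was 0.55 (rho 0.60, adjusted permutation p = 0.034), and without the 2 farthest arrays the 2 r were 0.60 and 0.56. Esr1 had r = -0.18 and -0.13 with these measures (adjusted permutation p = 0.53 and 0.59). With the array's median background Esr1 had r = -0.41 (rho -0.29, adjusted permutation p = 0.14) and Esr2 0.22 (adjusted permutation p = 0.52). Within slides this Esr1 r was -0.79, 0.27 and -0.49, and without the 2 farthest arrays -0.12. The background had medians of 31.5, 30 and 31 at 0.06, 20 and 60 mg, against 33 in unexposed ovaries. The part of the background in the Esr1 difference was not tested. The percentage had medians of 76.1%, 77.8% and 77.0% at 0.06, 20 and 60 mg, against 78.5% in unexposed ovaries. With the percentage as a covariate, a setting chosen after seeing the data, the Esr2 differences were -0.26 ± 0.21, -0.30 ± 0.18 and -0.19 ± 0.19 log2. Those of Esr1 were then +0.67 ± 0.30, +0.54 ± 0.26 and +0.29 ± 0.27 log2. The part of array brightness in the Esr2 difference was not tested beyond these values.

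Marker lists for 15 cell types or states were set against each receptor, 30 relations in all, each list scored as the mean of its genes centred over arrays. One relation passed an adjusted permutation p of 0.05. Esr1 was lower on arrays with more signal from the immediate early genes, transcription factors and regulators such as Fos, Fosb and Jun that are induced within minutes by stimulation or handling of tissue. Pearson's r was -0.72 (rho -0.55, adjusted permutation p = 0.035), and all 10 genes of the list had a negative r with Esr1, among them Fos at -0.66, Fosb at -0.33 and Jun at -0.46. Within slides r was -0.86, -0.70 and -0.36. The relation rested on unexposed replicate 1, whose list score of 1.76 log2 stood far above the next highest, 0.55, and whose Esr1 value was the lowest. Without it r was -0.46 (adjusted permutation p = 0.28), and without the 2 farthest arrays, unexposed replicate 1 and 60 mg replicate 5, it was -0.37. The relation also missed the threshold without any of 6 other arrays, at r of -0.71 to -0.72 and adjusted permutation p of 0.050 to 0.11: unexposed replicates 2 and 5, 0.06 mg replicates 2, 3 and 5, and 60 mg replicate 5. The immediate early score had medians of -0.12, -0.12 and -0.21 log2 at 0.06, 20 and 60 mg, against -0.05 in unexposed ovaries, and its part in the Esr1 difference was not tested.

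Esr1 was also set against connective tissue lists. With smooth muscle cell genes, which make the contractile apparatus, r was 0.45 (rho 0.44, adjusted permutation p = 0.23), and all 9 genes had a positive r, among them Acta2 at 0.43, Myh11 at 0.64 and Cnn1 at 0.51. Within slides r was 0.55, -0.15 and 0.96, so slide 2 did not share it. With stromal fibroblast genes r was 0.40 (rho 0.35, adjusted permutation p = 0.36), with 11 of 11 genes positive, among them Col1a1 at 0.31, Col1a2 at 0.34 and Col3a1 at 0.04. With theca and interstitial cell genes, the cells where Esr1 is known to act, r was -0.01, and with ovarian surface epithelium genes it was 0.17. Over all 20 arrays no list but the immediate early genes passed the threshold for Esr1, and within slide 3 the smooth muscle list did.

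Esr2 went with follicle markers in sign, short of the threshold. With the granulosa cell list r was 0.56 (rho 0.68, adjusted permutation p = 0.089), and 0.72, 0.37 and 0.95 within slides. Of its 13 genes 10 had a positive r, among them Fshr, the receptor for follicle-stimulating hormone, at 0.46, Amh, made by small growing follicles, at 0.62 and Inha, an inhibin subunit, at 0.44. With the oocyte list r was 0.59 (rho 0.69, adjusted permutation p = 0.089), and 0.56, 0.61 and 0.83 within slides. All 10 oocyte genes had a positive r, among them the oocyte growth factors Gdf9 at 0.57 and Bmp15 at 0.57 and the zona pellucida gene Zp1 at 0.44. Both lists passed by Spearman's rho, where 2 lists were called. Without the 2 farthest arrays the r were 0.48 and 0.55.

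Luteal and macrophage markers had a negative r with Esr2, also short of the threshold. With the luteal cell list r was -0.50 (rho -0.59, adjusted permutation p = 0.20), with 7 of 9 genes negative, among them Akr1c18, the enzyme that inactivates progesterone, at -0.41 and Ptgfr, the receptor that receives the prostaglandin signal for luteal regression, at -0.31. Prlr, the prolactin receptor, had 0.05. With the macrophage list r was -0.45 (rho -0.53, adjusted permutation p = 0.23), with 10 of 11 genes negative, among them Cd68 at -0.42, Aif1 at -0.57 and Csf1r at -0.43. Within slides the luteal r was -0.84, 0.01 and -0.72 and the macrophage r -0.13, -0.91 and -0.77. The macrophage score had medians of -0.04, 0.11 and 0.20 log2 at 0.06, 20 and 60 mg, against -0.35 in unexposed ovaries. Of its 11 genes, 0, 3 and 6 were higher at an unadjusted p under 0.05, beside 3.05%, 4.58% and 6.29% of all probes, and none passed the adjusted limma test. Dividing cell genes, with r of 0.25 for Esr1 and -0.02 for Esr2, had 0, 1 and 6 of 9 genes higher at that threshold. Of the 13 granulosa cell genes, 1, 4 and 0 were lower and 0, 1 and 1 higher at it. Of the 11 stromal fibroblast genes, 0, 5 and 1 were higher and 0, 0 and 1 lower. No gene of these lists passed the adjusted limma test, and the part of any of them in the receptor differences was not tested. Without unexposed replicate 3, which had the highest Esr2 value but a granulosa score of -0.12 log2, 5 lists passed for Esr2: granulosa (0.79), oocyte (0.77), theca and interstitial (0.63), luteal (-0.78) and macrophage (-0.62).

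Array brightness went with these lists as well. The granulosa and oocyte scores themselves had r of 0.56 and 0.55 with the percentage of spots well above background, and the macrophage score -0.58. Given that percentage, the partial r of Esr2 was 0.33 with the granulosa list, 0.37 with the oocyte list, -0.33 with the luteal list and -0.14 with the macrophage list. The granulosa score had medians of -0.10, -0.09 and 0.07 log2 at 0.06, 20 and 60 mg, against 0.19 in unexposed ovaries, and the groups overlapped except that the highest 20 mg ovary, at -0.03, lay below 4 of 5 unexposed ones. The part of follicle content in the Esr2 difference was not tested. The oviduct arrays form a cluster of their own, so no r is read from the oviduct list. Leaving them out kept the Esr1 differences at +0.65, +0.44 and +0.26 log2 and the Esr2 differences at -0.56, -0.50 and -0.51 log2.

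**Figure D4:**
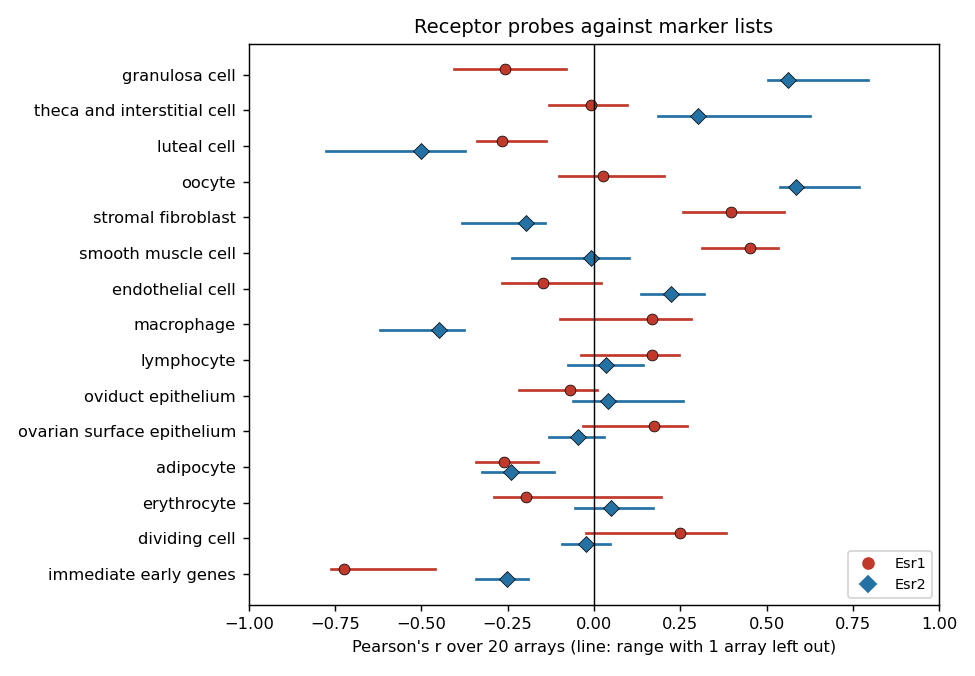
Pearson's r over 20 arrays (horizontal axis) of Esr1 (circles) and of the brightest Esr2 probe (diamonds) with the score of each marker list (rows); lines give the range when 1 array is left out. The immediate early list lies at -0.72 for Esr1, and granulosa and oocyte lists at 0.56 and 0.59 for Esr2.

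**Figure D5:**
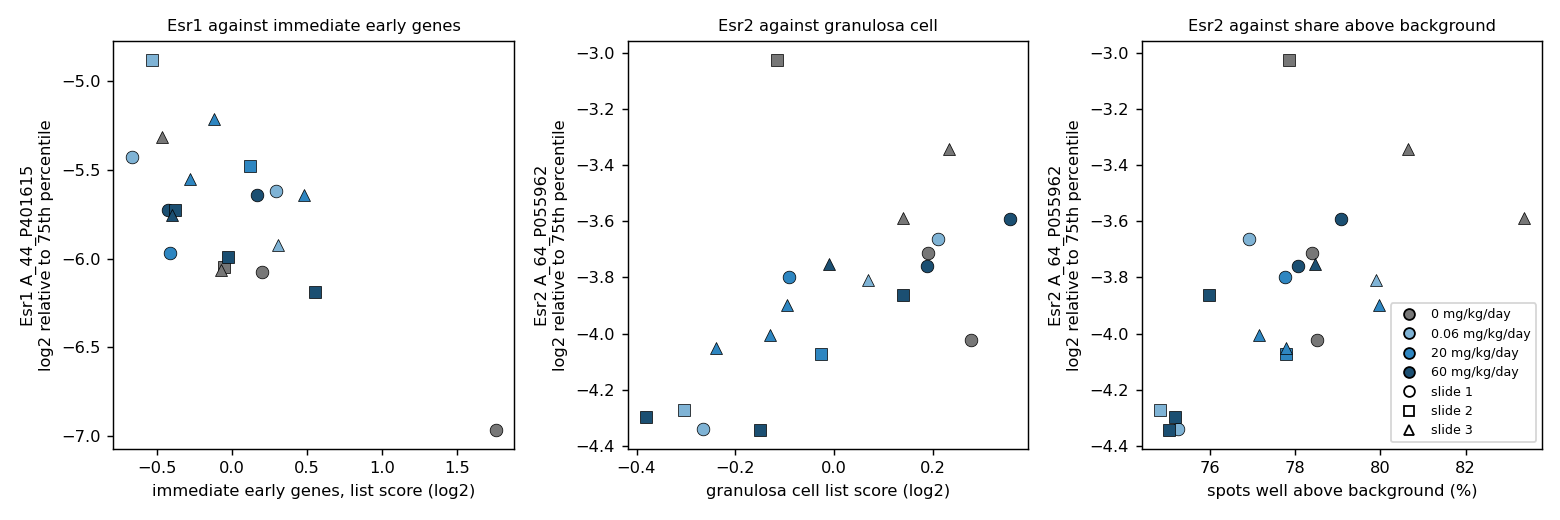
Esr1 against the immediate early gene score, and the brightest Esr2 probe against the granulosa cell score and against the percentage of spots well above background (all values per array; log2 on the vertical axes). Colour gives the dose and shape the slide. The unexposed ovary at an immediate early score of 1.76 lies far from the rest.

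The genes most like each receptor were named by Pearson's r over 20 arrays after slide means were removed, among 12451 other genes. All genes here share the same arrays and scaling, and the r are a description only. The 5 genes most like Esr1 were Dbndd2, a dysbindin family member (0.85), Slc1a3, a glutamate transporter (0.82), Gtpbp3, a mitochondrial tRNA-modifying protein (0.79), Alg6, a glucosyltransferase of N-glycan synthesis (0.79), and Ucp1, the uncoupling protein of brown fat (0.78). The 3 most opposed were Ube2g2, a ubiquitin-conjugating enzyme (-0.79), St13, an Hsp70-binding co-chaperone of steroid receptor complexes (-0.77), and Fpr1, a receptor for bacterial formyl peptides (-0.77). Without unexposed replicate 1 the r of the 5 most alike were 0.65 to 0.75 and those of the 3 most opposed -0.61 to -0.70.

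For Esr2 the most alike were Zbtb16, the transcription factor PLZF (0.84), Gabrg1, a subunit of the GABA-A receptor (0.79), Prps2, a phosphoribosyl pyrophosphate synthetase (0.76), Fntb, a farnesyltransferase subunit (0.74), and Zfp455, a zinc finger protein (0.73). The most opposed were Vcl, the adhesion protein vinculin (-0.79), Shisa7 (-0.71) and St3gal4, a sialyltransferase (-0.69). Zbtb16 was well above background on 11 of 20 arrays, Gabrg1 on 15 and, among the genes most like Esr1, Ucp1 on 7, so their r rest partly on values not well above background. The other named genes were well above it on all 20. Zbtb16 had r of 0.96, 0.87 and 0.78 within slides 1 to 3. An r above 0.7 was reached by 46 genes for Esr1 and 12 for Esr2, and an r below -0.7 by 61 and 2. With slide means kept, 3 of 5 and 4 of 5 of the most alike genes were shared with these lists.

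The other genes of oestrogen signalling were taken from 8 lists, and 97 of 119 list genes were tested. None passed the adjusted test at any dose in limma. At an unadjusted p under 0.05, 4 were higher and 2 lower at 0.06 mg (6.19% of the 97), 2 higher and 3 lower at 20 mg (5.15%), and 7 higher and 4 lower at 60 mg (11.3%). The shares over all probes were 3.05%, 4.58% and 6.29%.

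Of the oestrogen synthesis genes 12 of 13 were tested, and Cyp19a1, the aromatase, was not analysed here. Hsd17b1, the granulosa enzyme that makes oestradiol from oestrone, differed by -0.23 ± 0.25, -0.38 ± 0.24 and -0.10 ± 0.23 log2 from unexposed ovaries, from low to high dose. Hsd17b7, with a like activity, differed by +0.38 ± 0.58, -0.15 ± 0.55 and -0.47 ± 0.52 log2. Hsd17b12, a 3-ketoacyl reductase with some of that activity, had -0.25 ± 0.11 log2 at 60 mg, with limma p-values of 0.028 unadjusted and 0.78 adjusted. Cyp17a1, the theca enzyme of androgen synthesis, had -0.71 ± 1.86, -1.49 ± 1.76 and -0.05 ± 1.68 log2, with errors as large as the differences. The median difference of the list was 0.29, -0.05 and -0.01 log2, beside -0.03, 0.03 and -0.04 over all probes. At an unadjusted p under 0.05, 1, 1 and 2 of its genes were higher and 0, 0 and 1 lower. Over all probes 3.05%, 4.58% and 6.29% had such a p.

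Among oestradiol inactivation genes, Cyp1b1, which hydroxylates oestradiol and is induced through the dioxin receptor, was higher on average in every dosed group. Its means were -2.87 ± 0.88, -2.99 ± 0.83 and -2.43 ± 0.75 log2 at 0.06, 20 and 60 mg, against -3.82 ± 0.38 in unexposed ovaries. The differences were +0.95 ± 0.46, +0.83 ± 0.44 and +1.39 ± 0.42 log2, and at 60 mg the limma p was 0.0036 unadjusted and 0.78 adjusted. At 60 mg its values ran from -3.50 to -1.61, against -4.28 to -3.22 in unexposed ovaries, so the groups overlapped. The oxidising enzymes Hsd17b2 and Hsd17b4 had +0.08 ± 0.42 and +0.22 ± 0.10 log2 at 60 mg. At that dose all 6 tested genes of the list had a positive difference and 2 of them, Cyp1b1 and Hsd17b4, an unadjusted p under 0.05. Over all probes 6.29% had such a p at 60 mg, and no gene of the list passed the adjusted limma test.

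Of the other steroid and oestrogen-related receptors 6 of 10 were tested. Pgrmc1, a membrane protein of progesterone signalling, had +0.43 ± 0.14 log2 at 0.06 mg with limma p-values of 0.0076 unadjusted and 1.00 adjusted. Esrra, an orphan receptor that binds sites like those of Esr1, differed by +0.10 ± 0.13, +0.01 ± 0.12 and +0.04 ± 0.12 log2. The glucocorticoid and mineralocorticoid receptors Nr3c1 and Nr3c2 had differences between -0.15 and +0.04 log2. Pgr, the progesterone receptor and a classic oestrogen target, was on the array but not well above background on enough arrays to be tested.

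Of 10 tested receptor chaperones, 8, 7 and 8 had a negative difference from low to high dose. An unadjusted p under 0.05 was reached by 1, 0 and 0 of them, beside 3.05%, 4.58% and 6.29% of all probes. Their median differences were -0.13, -0.07 and -0.04 log2, beside -0.03, 0.03 and -0.04 over all probes. Hsp90aa1, which holds the empty receptor, had -0.32 ± 0.18, -0.34 ± 0.17 and -0.17 ± 0.17 log2, and its paralogue Hsp90ab1 had -0.12 ± 0.08, -0.06 ± 0.08 and -0.10 ± 0.08. Hspa8, an Hsp70 protein, had -0.20 ± 0.14 and Hspa4 -0.04 ± 0.09 log2 at 0.06 mg. Ppid, a cyclophilin of the receptor complex, averaged 2.63 ± 0.08 log2 at 0.06 mg and 2.87 ± 0.10 in unexposed ovaries. Its difference of -0.24 ± 0.08 log2 had limma p-values of 0.0054 unadjusted and 1.00 adjusted.

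From low to high dose, 0, 1 and 1 coactivators and 0, 1 and 2 corepressors had an unadjusted p under 0.05. Over all probes the shares were 3.05%, 4.58% and 6.29%. Of 11 tested coactivators, the p160 family member Ncoa2 had +0.07 ± 0.24, +0.11 ± 0.23 and -0.20 ± 0.22 log2, Ncoa6 stayed between -0.03 and +0.06 log2, and Crebbp, a histone acetyltransferase, had -0.41 ± 0.25 log2 at 0.06 mg. Ncoa4 had differences of -0.11 to -0.03 log2. Ppargc1b, a coactivator of oestrogen-related receptors, averaged -3.20 ± 0.22 log2 at 60 mg and -3.72 ± 0.30 in unexposed ovaries, a difference of +0.52 ± 0.17 log2 with limma p-values of 0.0067 unadjusted and 0.78 adjusted. Of 15 tested corepressors, Ncor1, which recruits histone deacetylase, had -0.01 ± 0.09, +0.02 ± 0.08 and -0.06 ± 0.08 log2. Nrip1, a corepressor needed for ovulation in mice, had -0.13, -0.25 and -0.27 log2, and Nr0b1, a repressor of steroidogenic transcription, had -0.57 ± 0.29, -0.58 ± 0.28 and -0.53 ± 0.26 log2.

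Pioneer and partner factors had no member with an unadjusted p under 0.05 at any dose, beside 3.05%, 4.58% and 6.29% of all probes. Of 10 tested, Foxa1, which opens chromatin for the receptor in breast cells, had -0.03, +0.04 and -0.17 log2. Gata3 had -0.29 ± 0.36, -0.67 ± 0.34 and -0.19 ± 0.32 log2, and the granulosa and theca factors Gata4 and Gata6 had +0.02, -0.02 and -0.14 log2 and +0.20, +0.20 and 0.00 log2.

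The 28 tested oestrogen-responsive genes showed no common direction. From low to high dose 13, 15 and 11 had a positive difference, and the median was -0.02, 0.01 and -0.05 log2, close to that over all probes. At an unadjusted p under 0.05, 1 was higher and 1 lower at 0.06 mg, and 0 higher and 1 lower at 20 mg. At 60 mg 1 was higher and 2 lower. All probes had such a p in 3.05%, 4.58% and 6.29% of cases. Tff1, the trefoil factor known as a target in human breast cells, had -0.21 ± 0.60, +0.79 ± 0.57 and -0.04 ± 0.54 log2. Xbp1, a factor of the unfolded protein response, had +0.15, +0.04 and -0.01 log2. The cell cycle genes Ccnd1 and Myc had +0.32 ± 0.16, +0.31 ± 0.15 and +0.23 ± 0.15 log2 and -0.40 ± 0.28, -0.12 ± 0.26 and -0.10 ± 0.25 log2.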

How the data were processed

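The values start from the scanner's processed signal, an intensity that the authors deposited for each of 20 1-colour arrays. Per the file headers, it came from Agilent Feature Extraction 11.5.1.1, whose processed signal is background-corrected. The authors also deposited a log2 table of normalized, centred values, used only as an alternative, whose normalization and baseline the sources used here do not give. Spots flagged as outliers were left out, spots of a probe were averaged as log2 values, and each array's log2 75th percentile over non-control spots was subtracted. Probes whose spots were all well above background on at least 4 arrays were tested, 23258 of 30335. Differences came from limma 3.58.1 in R 4.3.3 with Benjamini-Hochberg adjustment over all probes, with group as the only term. Correlations have two-sided permutation p-values from 100000 resamples. The code was tested on simulated data.

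The members, the gene lists and the ratio were chosen with earlier results of these data known. A permutation test planned for the ratio is not reported for that reason. Genes were named by a rule: from each pathway list the first 4 tested genes and any with an unadjusted p under 0.01, from each cell list the first 3, and the 5 most alike and the 3 most opposed to each receptor. Symbols come from matching the array's transcripts to RefSeq, which gave 18758 of 30367 probes a symbol. Normexp used the median spot signal and the median background with an offset of 50. The values measure the spread between arrays, 1 per animal, which also holds labelling, hybridisation and slide effects. The number of arrays limits the precision. Replicate numbers were not treated as pairs: of 27 same-numbered pairs 8 had r over 0.1, and r ran from -0.31 to 0.35. Of these pairs 16 shared a slide, and no test set them against other pairs, so pairing cannot be judged from these r. Pairs of arrays correlated at 0.965 to 0.994, and none was a copy of another. Some genes that this rule names are not reported here.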

Additional observations from a re-analysis of the deposited data

How the results depend on the processing

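Neither receptor passed an adjusted p of 0.05 at any dose, over the 3 doses or by dose order under any alternative of normalization, background, filter, slide, spike-in slope, deposited table or left-out array, and the lowest adjusted limma p among these was 0.20. Esr1 could not be tested among probes well above background on all 20 arrays. The sign turned within slide 3 for Esr1 at 0.06 mg/kg/day (-0.23 log2), at 60 mg/kg/day (-0.064) and over the 3 doses (-0.026). For the brightest Esr2 probe it turned within slide 1 at 20 mg/kg/day (+0.069), 60 mg/kg/day (+0.19) and over the 3 doses (+0.043). The other Esr2 probes were likewise higher than in unexposed ovaries on slide 1 at 20 and 60 mg/kg/day. The sign also turned with Esr2 probe A_64_P049530 at 20 mg/kg/day (+0.029) and for the dose order (+0.038 per step). With no filter on dim probes, 1 probe passed over the 3 doses, A_64_P041243, with no symbol here, against 0 with the filter. It was chosen after its value was seen and was well above background on 1 array.

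The log ratio moved by over the SD within doses with normexp (0.58 and 0.46 log2 at 0.06 and 20 mg/kg/day), with Esr2 probe A_64_P049530 at 20 mg/kg/day (0.49), and within slides (2.42 and 0.11 at 0.06 mg/kg/day, 0.48 and 1.62 at 20, 1.22 and 0.22 at 60). That SD is of the main values, whereas the normexp offset shrinks log2 differences and their spread alike. With 1 array left out the log ratio was 0.84 to 1.34, 0.83 to 1.1 and 0.53 to 0.80 log2. The count of marker lists correlated with Esr1 was 1, and it was 0 by Spearman's rho, with slide or dose means removed, with quantile normalization, within slides 1 and 2, and without the 2 farthest arrays. It was 0 to 1 with 1 array left out, and the 1 list within slide 3 was another, smooth muscle. The count for Esr2 was 0, and it was 2 by Spearman's rho, 1 within slide 2 (macrophage), 1 within slide 3 (granulosa), and 0 to 5 with 1 array left out. The causes were not tested.

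The replicate block gave Esr1 differences of +0.62, +0.52 and +0.24 log2 and Esr2 differences of -0.51, -0.43 and -0.43 log2 from low to high dose, changed no call and left 0 probes called. With it 2.37%, 4.79% and 10.2% of probes had an unadjusted limma p under 0.05, against 3.05%, 4.58% and 6.29% without it. The Esr1 signal, at most 2.03 log2 above the lowest signal called well above background, limits what its 1 probe can resolve.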
